A study of Mus musculus with 15 samples.

Results

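Chemokines are small secreted proteins that steer leukocytes through G protein-coupled receptors, and in the brain some of them also pass signals between neurons, glia and vessels. The genes fall into inducible ones, which neutrophil, monocyte and T cell recruitment relies on, and constitutive ones such as Cxcl12, Cxcl14 and Cx3cl1, which resting tissue also makes. The set described here holds 10 chemokine genes, Cxcl5, Cxcl1, Cxcl10, Ccl3, Ccl4, Ccl5, Ccl2, Cxcl12, Cxcl14 and Cx3cl1, out of 27962 gene names on the array. They were chosen by name, starting from Cxcl5 and Ccl3, which were selected on measured values of these same arrays, namely their low level in E1. All 13 probes that carry the 10 names are described, and all 10 genes passed the filter on dim probes, as did 26117 genes in all.

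Hippocampal RNA of male C57BL/6J mice was hybridised to single-colour Agilent arrays, 5 arrays in each of 3 groups. ELF mice had been shocked in a box, returned to it at 24 h intervals without a shock, and sampled 1 h after trial 5, at which they froze less. E1 mice were shocked in the same way and sampled 1 h after trial 1, while freezing was high. Control mice were placed in the box and never shocked according to the design text, although their sample names call them naive. No age is given, and the labels state that the 5 samples of a group are biological replicates. The RNA came from the whole hippocampus, so that fewer cells of a type and less RNA per cell cannot be told apart.

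The arrays lay on 4 slides, which are regarded as batches. The reported fits did not adjust for the slide, and only alternative fits did. Slide 1 held control arrays 1 to 4, slide 2 held control array 5 and E1 arrays 1 to 3, slide 3 held E1 arrays 4 and 5 and ELF arrays 3 and 4, and slide 4 held the other ELF arrays. The share of spots well above background ran from 83.5% to 97.2% per array. All 10 neuron markers were well above background on all 15 arrays, and Snap25 was saturated on all 15. Levels below are log2 intensities relative to the 75th percentile of the array, so that 1 unit is a doubling, and they are not compared between probes. Differences are the first named group minus the second, with the standard error (SE) of a limma fit on all genes. A gene was called where its Benjamini-Hochberg adjusted p over the 26117 genes was under 0.05.

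The sequences below show what the probes of the 2 leading genes and of Cxcl12, whose probes disagreed, bind. Each is the last 30 of the probe's 60 bases as the files give them, placed on the mm7 build. The capitals in the Ccl3 probe mark AATAAA, the usual signal for cleavage and polyadenylation of a messenger RNA, which this probe includes.
Cxcl5, chr5:90732453-90732512, plus strand: atgtcatgacttactcaacaaactgtatac
Ccl3, chr11:83717761-83717820, minus strand: tgtttataccagagaagtAATAAAtatgcc
Cxcl12 further 3′, chr6:117207552-117207611, plus strand: tgctttcttattcttatttttaatatatga
Cxcl12 further 5′, chr6:117200799-117200858, plus strand: gatttggactttggtaattgtccctgagtc
Between the Cxcl12 probes lie 6693 bases of genome, and the array's annotation assigns each probe to a separate transcript of the gene. Exon and untranslated region positions were not used here, since no annotation of mm7 was at hand.

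Inducible chemokine genes are classic targets of NF-kB and AP-1. The windows below set Ccl3, which was low in E1, beside Cxcl1 and Cxcl10, which were not called. Upstream windows on GRCm38.p6 were at hand for 6 of the 10 genes. Cxcl5, Ccl2, Ccl4 and Ccl5 had none and were not searched. The 250 bases before the start are printed for Ccl3, Cxcl1 and Cxcl10. Capitals mark matches on either strand to the NF-kB consensus or to the AP-1 site TGANTCA.
Ccl3, chr11:83649379-83649628, minus strand: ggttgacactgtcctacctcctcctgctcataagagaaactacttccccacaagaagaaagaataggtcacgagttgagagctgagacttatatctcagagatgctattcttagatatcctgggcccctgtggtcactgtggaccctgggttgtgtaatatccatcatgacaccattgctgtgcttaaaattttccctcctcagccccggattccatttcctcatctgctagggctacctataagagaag
Cxcl1, chr5:90890995-90891244, plus strand: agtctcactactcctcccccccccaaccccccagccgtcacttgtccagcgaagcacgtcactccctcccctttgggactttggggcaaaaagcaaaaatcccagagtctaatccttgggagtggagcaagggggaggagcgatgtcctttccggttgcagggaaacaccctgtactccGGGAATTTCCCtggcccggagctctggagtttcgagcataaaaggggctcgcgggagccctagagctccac
Cxcl10, chr5:92348890-92349139, minus strand: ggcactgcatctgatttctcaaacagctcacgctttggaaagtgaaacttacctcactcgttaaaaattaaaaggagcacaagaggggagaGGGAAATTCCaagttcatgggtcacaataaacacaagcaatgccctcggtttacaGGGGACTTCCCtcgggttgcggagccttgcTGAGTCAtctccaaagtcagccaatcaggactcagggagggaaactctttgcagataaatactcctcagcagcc
In the Cxcl1 window 2 overlapping NF-kB matches began 71 and 70 bases before the start. The Cxcl10 window had an NF-kB match at 159 bases, 2 overlapping ones at 104 and 103 bases, and the AP-1 letters at 74 bases. Neither motif was found in the windows of Ccl3, Cxcl12, Cxcl14 and Cx3cl1. Of all 32851 such windows, 7.25% held an NF-kB match and 6.75% an AP-1 match. A match describes the letters only.

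Cxcl5, a chemokine that attracts neutrophils through CXCR2, was lower 1 h after trial 1 than in either other group. Its level was -3.84, -3.57, -3.55, -3.10 and -3.64 on ELF arrays 1 to 5. On the E1 arrays it was -5.13, -4.62, -5.36, -5.61 and -5.07. On the control arrays it was -3.44, -2.94, -2.66, -3.33 and -3.44. Every E1 array lay below every ELF and every control array, while ELF and control arrays overlapped. The probe was well above background on all 15 arrays, but dim, with processed intensities of 172 to 341 in ELF, 38.8 to 94.1 in E1 and 161 to 365 in control.

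Since Cxcl5 and Ccl3 were picked for their level in E1, their differences that involve E1 are a description without a test. Cxcl5 averaged -5.16 ± 0.37 in E1 and -3.16 ± 0.35 in control (SD, n = 5 each), a difference of -2.0 (SE 0.20), or 3.99-fold lower in E1. In ELF it averaged -3.54 ± 0.27, which was 1.62 (SE 0.20), or 3.07-fold, above E1. ELF and control differed by -0.38 (SE 0.20, 95% interval -0.81 to 0.05).

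Ccl3, also known as macrophage inflammatory protein 1 alpha and a ligand of CCR1, had the same order of groups over a narrower range. It was at -4.41, -4.22, -4.46, -4.47 and -4.42 on the ELF arrays. The E1 arrays gave -5.00, -5.15, -4.86, -5.01 and -5.18. The control arrays gave -4.42, -4.14, -4.26, -4.23 and -4.27. Again all 5 E1 arrays lay below the other 10, and ELF and control overlapped. E1 averaged -5.04 ± 0.13 and control -4.26 ± 0.10 (SD, n = 5 each), a difference of -0.78 (SE 0.08), or 1.71-fold lower in E1. ELF averaged -4.40 ± 0.10, which was 0.64 (SE 0.08), or 1.56-fold, above E1 and differed from control by -0.13 (SE 0.08, 95% interval -0.31 to 0.05).

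**Figure D1:**
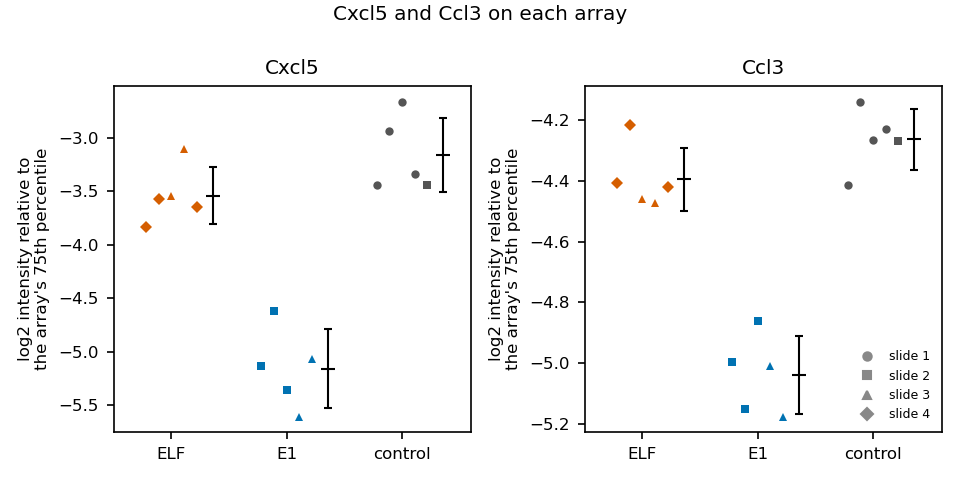
Log2 intensity of Cxcl5 (left panel) and Ccl3 (right panel) relative to the array's 75th percentile, for the 5 arrays each of ELF, E1 and control. Symbols give the slide and bars the mean ± SD. All E1 arrays lie below all other arrays in both panels.

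For both genes every E1 array lay below every other array, so differences within 1 slide had to have the same signs. They are given for their size only, and slide 2 rests on a single control array. On slide 2, the 3 E1 arrays averaged -5.04 for Cxcl5 and the single control array was at -3.44, a difference of -1.60. Ccl3 differed by -0.74 there, while the median of all genes differed by -0.04. On slide 3, the 2 ELF arrays averaged -3.33 for Cxcl5 and the 2 E1 arrays -5.34, a difference of 2.01, and Ccl3 differed by 0.63 with a median of -0.18 over all genes. With the slide as a fixed or a random block, neither gene was called between E1 and control. With the normexp correction the differences between E1 and control were -1.35 for Cxcl5 and -0.34 for Ccl3, and those between ELF and E1 were 1.00 and 0.27.

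Cxcl5 and Ccl3 were both selected for their low E1 level, which by itself gives a high correlation over these arrays, so their likeness is a description. Over the 15 arrays Ccl3 was the gene most like Cxcl5 among 22438 genes compared (Pearson's r = 0.89), and Cxcl5 ranked second for Ccl3. Once the group means were taken off, the correlation between them was -0.20. The next genes for Cxcl5 were 2210403B10Rik, now Rasl10a (r = 0.88), Col6a3, which encodes a collagen VI chain (r = 0.86), 2810004A10Rik (r = 0.85) and TC1418772 (r = 0.83). For Ccl3 the other genes were AK038199 (r = 0.90), Sln, which encodes the calcium pump regulator sarcolipin (r = 0.87), AK032340 (r = 0.85) and TC1454581 (r = 0.84). Sln differed by -1.19 between E1 and control and by 1.23 between ELF and E1, and Col6a3 by -1.14 and 0.78. All these values come from the same arrays and slides.

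**Figure D2:**
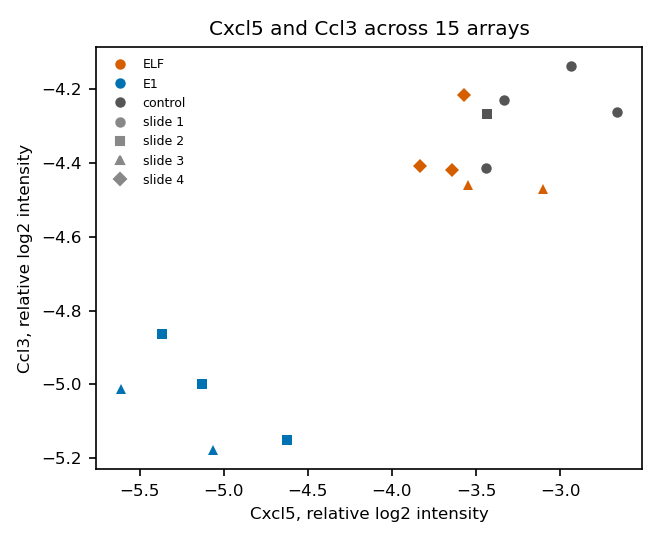
Ccl3 against Cxcl5 on each of the 15 arrays, both as log2 intensity relative to the array's 75th percentile, with colour for group and symbol for slide. The 5 E1 arrays form the lower left cluster, apart from the mixed ELF and control arrays (r = 0.89 over 15 arrays, -0.20 after removal of the group means).

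Genes beside Cxcl5 and Ccl3 on the chromosome were not called in any comparison. In the gene order of GRCm38.p6, Rassf6 precedes Cxcl5 and differed by 0.18 between E1 and control, and Ppbp (Cxcl7 on the array), which encodes a platelet chemokine, follows it and differed by -0.29. Ccl6 and Ccl4 flank Ccl3 and differed by -0.05 and -0.04.

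Across the set, 2 of 10 genes were called between E1 and control, Cxcl5 and Ccl3, and both were lower in E1. Neither was called with the slide as a fixed or a random block. Of all genes tested, 0.188% were called, namely 49, or 9 with the replicate number as a block. Since this contrast served to pick these genes, nothing is read from that count. The arrays of the 2 groups did not overlap for 3 of the 10 genes, Cxcl5, Ccl3 and Cxcl12, against 3.73% of all genes. Between ELF and E1 the same 2 genes were called, both higher in ELF. They were the only 2 of 26117 genes called there, 0.00766%. Both were picked for their E1 level, so nothing is read from this count, nor from their lack of overlap in comparisons with E1. Neither was called with normexp, quantile normalization, the array median, the random slide block, the replicate block or only these groups in the fit, and with 1 array left out Cxcl5 kept its call in 3 of 10 fits and Ccl3 in 2 of 10. With the slide as a fixed block both were called, among 5120 genes in all. ELF and E1 arrays did not overlap for Cxcl5, Ccl3 and Cxcl14, against 2.06% of all genes. Between ELF and control the called genes were Cxcl12, lower in ELF, and Cxcl14, higher in ELF, against 2.15% of all genes. By the probe used for each gene, the same 2 did not overlap between ELF and control, against 4.75% of all genes. For Cx3cl1 that probe was saturated, and its other probe did not overlap either. The E1 and ELF comparisons with control share the control arrays, and the comparison of ELF with E1 shares its arrays with both.

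**Figure D3:**
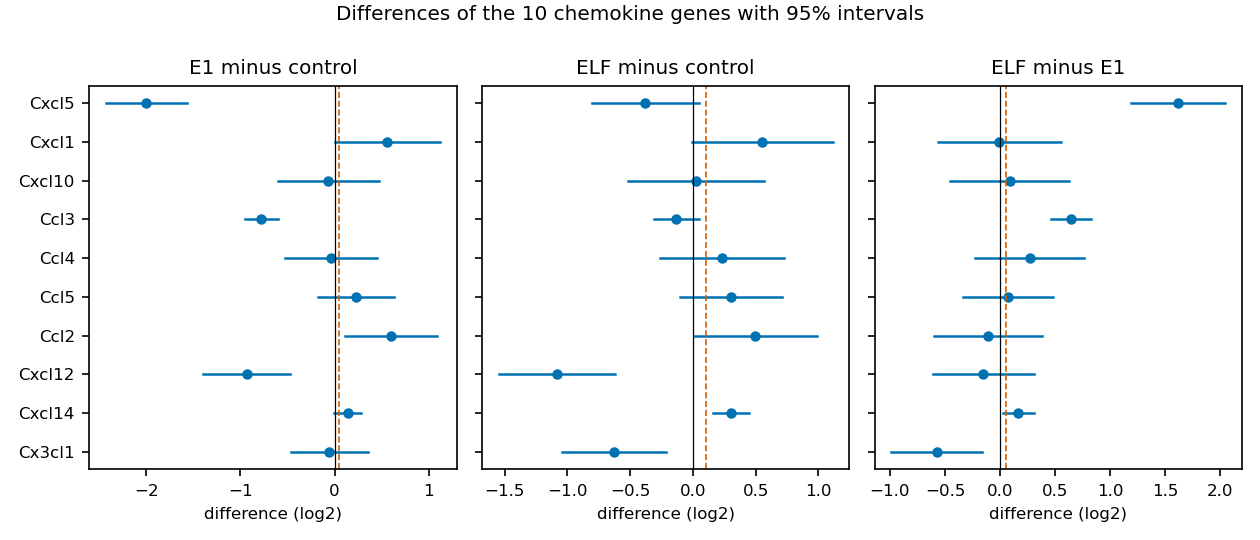
Difference in log2 intensity of each of the 10 genes for E1 minus control, ELF minus control and ELF minus E1. Points are limma estimates and lines their 95% intervals, the dashed line is the median of all genes, and Cx3cl1 is shown by its unsaturated probe. Cxcl5 and Ccl3 lie below 0 in the first panel and above 0 in the third.

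Cxcl1, like Cxcl5 a CXCR2 ligand that draws neutrophils, was not called in any comparison. It was at -5.32, -4.80, -5.29, -6.13 and -5.12 on the ELF arrays, at -5.15, -5.20, -6.16, -5.20 and -4.90 on the E1 arrays, and at -6.04, -6.13, -6.00, -5.92 and -5.32 on the control arrays. The groups overlapped, and E1 array 3 and ELF array 4 were not well above background. The difference was 0.56 (SE 0.26, adjusted p = 0.382 from limma) between E1 and control and 0.55 (SE 0.26, limma adjusted p = 0.222) between ELF and control. Control array 5, on slide 2, lay above the 4 control arrays of slide 1, and within slide 2 the difference between E1 and control was -0.18.

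Ccl4, the close relative of Ccl3 that lies next to it on chromosome 11, was not called. The ELF arrays gave -4.33, -4.19, -5.15, -5.48 and -4.42, the E1 arrays -4.89, -4.92, -5.43, -4.78 and -4.89, and the control arrays -5.18, -5.15, -4.99, -4.74 and -4.66. The groups overlapped throughout. E1 differed from control by -0.04 (SE 0.23, 95% interval -0.53 to 0.45) and ELF from control by 0.23 (SE 0.23, 95% interval -0.26 to 0.72).

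Ccl2, which recruits monocytes through CCR2, was printed as 10 spots per array, of which 10 over all arrays were left out as outliers, and the SD between spots of an array had a median of 0.13. It was at -3.51, -2.96, -4.00, -4.12 and -3.32 on the ELF arrays, at -3.30, -3.51, -3.69, -3.52 and -3.37 on the E1 arrays, and at -4.00, -4.70, -4.16, -4.03 and -3.50 on the control arrays. Of the control arrays, only array 5, on slide 2, reached the E1 range. E1 differed from control by 0.60 (SE 0.23, limma adjusted p = 0.270) and ELF from control by 0.50 (SE 0.23, limma adjusted p = 0.212). Within slide 2 the E1 arrays and the control array differed by 0.003. With the replicate number as a block and only the E1 and control arrays in the fit, Ccl2 was called (limma adjusted p = 0.0451), as were 3201 genes in all.

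Ccl5, a T cell and monocyte attractant, had 2 probes and was not called by either. The brighter probe ranged from -3.36 to -2.29 in ELF (median -2.97), from -3.33 to -2.57 in E1 (median -3.05) and from -3.44 to -3.04 in control (median -3.22), and the groups overlapped. It differed by 0.23 (SE 0.19) between E1 and control and by 0.30 (SE 0.19) between ELF and control, and the dimmer probe by 0.12 (SE 0.24) and 0.37 (SE 0.24). Cxcl10, the interferon-induced ligand of CXCR3, ranged from -4.77 to -3.56 in ELF (median -4.26), from -4.57 to -3.83 in E1 (median -4.40) and from -4.82 to -3.70 in control (median -4.10). These ranges covered each other, and its difference was -0.07 (SE 0.25, 95% interval -0.61 to 0.48) between E1 and control.

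Cxcl1, Ccl2, Ccl4 and Ccl5 varied together within groups. After the group means were taken off, the 6 pairs among them had correlations between 0.70 and 0.83 over the 15 arrays, which share slides and processing. These 6 pairs ranked highest in the set, so the genes were grouped on these same values. For Cxcl5 the correlations with these genes were between -0.40 and -0.22, and for Ccl3 between -0.12 and 0.22. ELF arrays of different slides stood apart, and they also differed in the share of spots well above background. It was 88.6% and 83.5% on slide 3 and 95.8%, 96% and 97.2% on slide 4. The 2 ELF arrays of slide 3 averaged -5.31 for Ccl4 and the 3 of slide 4 averaged -4.31, and for Ccl2 these means were -4.06 and -3.27. Cxcl5 averaged -3.33 and -3.68 on the same arrays, and Ccl3 -4.47 and -4.35. How far the slide contributes to the differences between groups was not tested beyond the within-slide values and the slide fits.

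**Figure D4:**
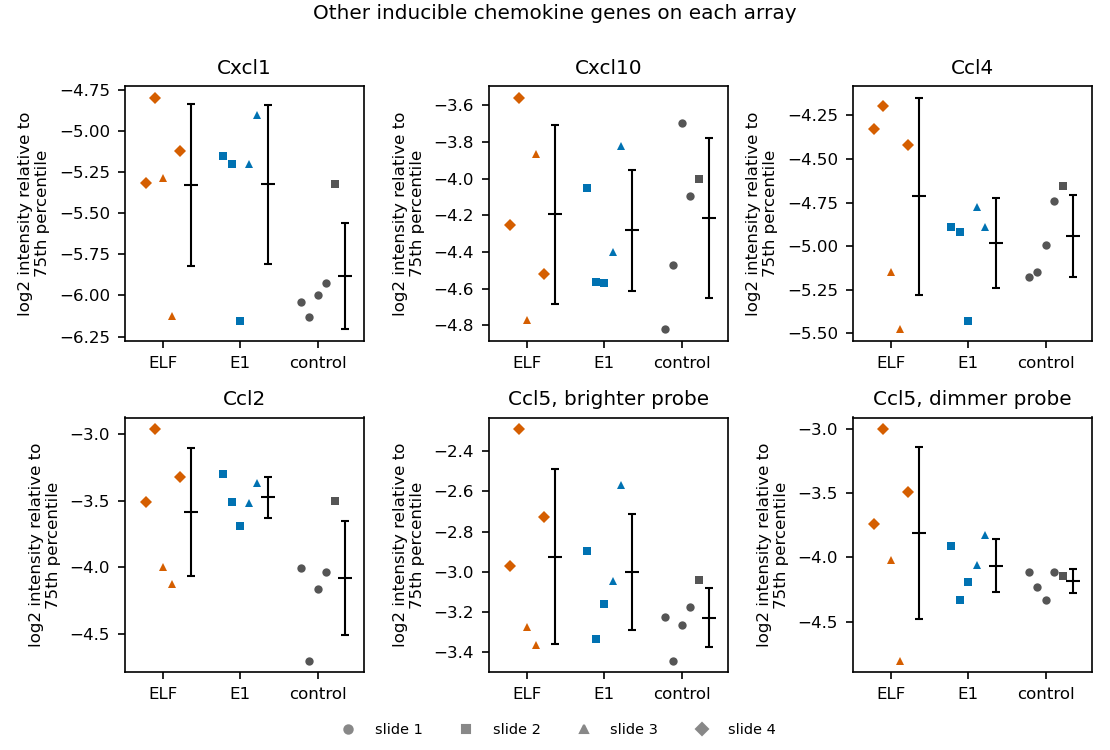
Log2 intensity of Cxcl1, Cxcl10, Ccl4, Ccl2 and both Ccl5 probes relative to the array's 75th percentile, by group and array, with symbols for slides and bars for mean ± SD. The groups overlap in every panel, and for Ccl2 and Cxcl1 the control array of slide 2 lies above those of slide 1.

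Cxcl12, the ligand of CXCR4 and ACKR3 that endothelial cells and some neurons make, was lower in ELF than in control by its brighter probe, the one further 3′. That probe gave -0.41, -0.03, -0.04, -0.68 and -0.41 on the ELF arrays and 0.15, 0.14, -0.18, -0.26 and -0.68 on the E1 arrays. The control arrays gave 1.15, 1.31, 0.63, 0.42 and 0.33, all above every ELF and E1 array. ELF differed from control by -1.09 (SE 0.22, limma adjusted p = 0.0302), or 2.12-fold lower in ELF. E1 differed from control by -0.93 (SE 0.22, limma adjusted p = 0.0787), which did not pass the threshold.

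The other Cxcl12 probe, 6693 bases upstream, gave other values. It averaged -0.40 ± 0.11 in ELF, -0.64 ± 0.18 in E1 and -0.41 ± 0.15 in control (SD, n = 5 each), and the groups overlapped. ELF differed from control by 0.005 (SE 0.10, 95% interval -0.21 to 0.22), and E1 from control by -0.23 (SE 0.10, limma adjusted p = 0.340). The highest values of the brighter probe came from slide 1, which held control arrays only. On slide 2 the 3 E1 arrays averaged 0.04 and the control array 0.33, a difference of -0.29, and with the slide as a fixed block ELF differed from control by -0.19. With the replicate block the limma adjusted p of E1 against control was 0.0542. With the block and only the 2 groups in the fit, a setting chosen after seeing the data that called 3201 genes, it was 0.0130, and the ELF call was lost there (limma adjusted p = 0.348). The call in ELF was kept in 5 of 10 fits that each left out an array, with a highest adjusted p of 0.0972 from limma without control array 3. It was also lost without control arrays 1 or 2 and without ELF arrays 1 or 5.

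Most endothelial markers were lower in ELF and E1 than in control, as was the Cxcl12 probe further 3′. The other Cxcl12 probe was not lower in ELF. Slide 1 held control arrays only, and no slide fit is given for these markers. Of 18 measured, 9 were called lower in ELF than in control and 3 called lower in E1 than in control, against 2.15% and 0.188% of all genes called, with a median difference of -0.74 in ELF and -0.57 in E1 against 0.10 and 0.04 over all genes. The called ones include Cldn5, a tight junction protein, at -0.74 in ELF and -0.93 in E1, and Kdr, the VEGF receptor, at -0.98 and -0.86. Sox18, an endothelial transcription factor, was at -0.85 and -1.11, and Abcb1a, which pumps drugs out of brain endothelium, differed by -1.20 in ELF and -0.72, not called, in E1. The summed level of the list, in units of the array's 75th percentile, was 10.4 to 12.5 in ELF, 11.9 to 14.4 in E1 and 15.5 to 26.2 in control, with 17 of 18 markers well above background on all arrays. For choroid plexus markers it was 2.92 to 35.0 in ELF, 32.7 to 55.3 in E1 and 40.9 to 63.4 in control. Of 10 such markers 0 were called by limma, and 8 had an unadjusted p under 0.05 between ELF and control, all lower in ELF, against 23% of all genes. The brightest, Ttr and Clic6, differed by -1.74 (SE 0.85) and -1.14 (SE 0.47) between ELF and control. Ttr was not among the 8, and its SD was 2.47 in ELF and 0.28 in control. The part of these cells in the Cxcl12 difference was not tested.

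Cxcl14, a chemokine of epithelia that some interneurons also make, was higher in ELF than in control. It was at 2.90, 2.75, 2.88, 2.82 and 2.78 on the ELF arrays, at 2.66, 2.57, 2.65, 2.70 and 2.73 on the E1 arrays and at 2.50, 2.43, 2.48, 2.63 and 2.57 on the control arrays. ELF lay above every E1 and control array, whereas E1 and control overlapped. The difference of ELF from control was 0.30 (SE 0.07, limma adjusted p = 0.0401), or 1.24-fold higher in ELF, that of E1 from control 0.14 (SE 0.07, limma adjusted p = 0.390) and that of ELF from E1 0.16 (SE 0.07, limma adjusted p = 0.466). The median of all genes differed by 0.10 between ELF and control, and with each array's median as the shift the difference of Cxcl14 was 0.20 (limma adjusted p = 0.332). The call was kept in 3 of 10 fits with an array left out and lost without control arrays 1, 2, 3 or 4 or ELF arrays 1, 3 or 5 (highest limma adjusted p = 0.126), and with the slide as a fixed block the difference was 0.20.

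Cx3cl1, the membrane-bound chemokine of neurons whose receptor CX3CR1 sits on microglia, was saturated at its brighter probe on all 15 arrays, so no fold is given there. Its other probe gave -2.19, -3.11, -2.38, -3.16 and -2.07 on the ELF arrays. On the E1 arrays it gave -2.02, -1.97, -1.79, -1.99 and -2.28, and on the control arrays -1.83, -1.98, -1.97, -2.05 and -1.93. Every ELF array lay below every control array, and ELF arrays 2 and 4 stood lowest. ELF differed from control by -0.63 (SE 0.19, limma adjusted p = 0.0838) and from E1 by -0.57 (SE 0.19, limma adjusted p = 0.403), and E1 from control by -0.05 (SE 0.19, 95% interval -0.47 to 0.36). None of these passed the threshold. With quantile normalization, the array median or the authors' deposited values, the difference of ELF from control was -0.72, -0.73 and -0.65 and passed it (limma adjusted p = 0.0425, 0.04 and 0.0328). With normexp, the fixed slide block or the random slide block it was -0.56, -0.63 and -0.62 and did not pass. Of 10 fits that each left out an array, 0 passed.

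**Figure D5:**
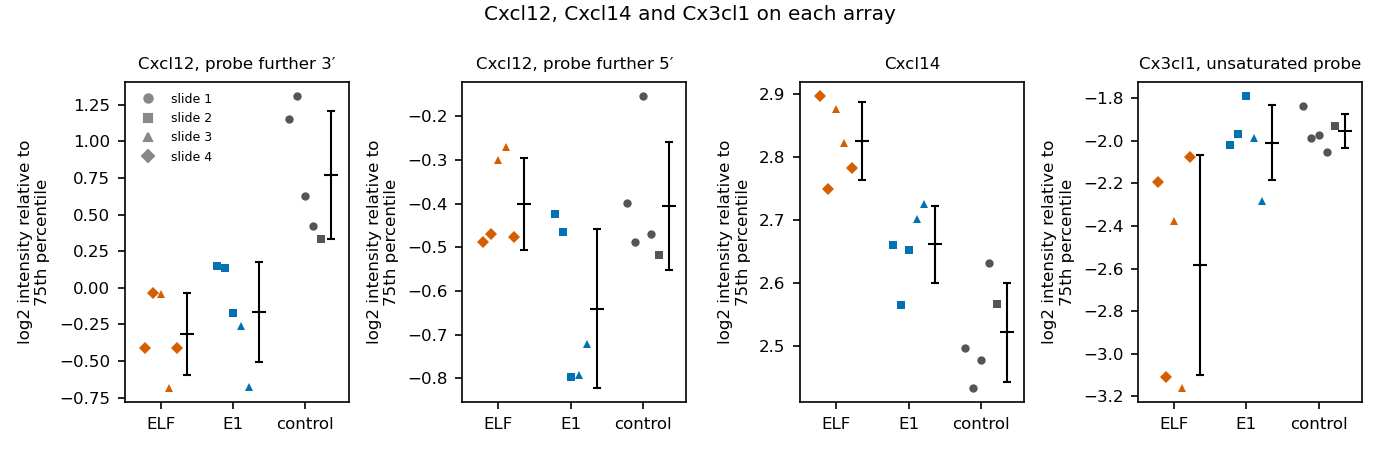
Log2 intensity of both Cxcl12 probes, Cxcl14 and the unsaturated Cx3cl1 probe relative to the array's 75th percentile, by group and array, with symbols for slides and bars for mean ± SD. All control arrays lie above all others at the Cxcl12 probe further 3′ but not at the probe further 5′, and the ELF arrays of Cxcl14 lie above all others.

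The rest of the chemokine system gave few calls. Of 21 measured ligands outside the set, 0 were called by limma in any comparison, with median differences of 0.10 between E1 and control, 0.25 between ELF and control and 0.07 between ELF and E1, beside 0.04, 0.10 and 0.05 over all genes. The smallest p-values belonged to Ccl1, Cxcl11 and Ccl7. Ccl1 differed by 1.60 between E1 and control (limma adjusted p = 0.0735). It was dim, well above background on 12 of 15 arrays, with a control mean of -6.47 (SD 0.95). Cxcl11 was well above background on only 5 of 15 arrays and is given no difference. Ccl7 differed by 1.06 between ELF and control (limma adjusted p = 0.0543). At an unadjusted p under 0.05 there were 5, 5 and 0 of the 21 ligands in E1 versus control, ELF versus control and ELF versus E1, where 13.1%, 23% and 9.64% of all genes had such a p. Of 22 receptors, 0 were called by limma, and 2, 9 and 2 had an unadjusted p under 0.05 in the same order. Cxcr2 (Il8rb on the array), the receptor of Cxcl5 and Cxcl1, differed by 1.63 between E1 and control (limma adjusted p = 0.0747) and by 0.95 between ELF and control. Cxcr2 was also dim, well above background on 14 of 15 arrays, with a control mean of -5.77 (SD 0.94). Ackr3 (Cmkor1 on the array), which scavenges Cxcl12, differed by 0.35 between ELF and control (limma adjusted p = 0.0584), and Ccr6 by 0.78 (limma adjusted p = 0.0758).

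The inhibitor gene Nfkbib was called, higher in ELF than in control by 0.34 (limma adjusted p = 0.0459). It was the only call among 23 genes of the NF-kB pathway and its inducing cytokines, against 2.15% of all genes called there. At an unadjusted p under 0.05 there were 6, 5 and 3 of the 23 in E1 versus control, ELF versus control and ELF versus E1. Of all genes, 13.1%, 23% and 9.64% had such a p in these comparisons. Nfkbia, another inhibitor gene and named after its values were seen, differed by 0.64 between E1 and control (limma adjusted p = 0.0513). Of 7 genes that process or hold chemokines, 0 were called by limma. At an unadjusted p under 0.05 there were 1, 1 and 0, against 13.1%, 23% and 9.64% of all genes. The smallest p-values belonged to Sdc4 and Mmp9, which differed by 0.29 and 0.44 between ELF and control, and Sdc1, which differed by 0.51 between E1 and control.

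Markers of cells that can make inducible chemokines are given beside Cxcl5 and Ccl3. All 20 microglial markers were well above background on every array and 0 were called by limma. At an unadjusted p under 0.05 there were 2 of 20 in E1 versus control and 10 of 20 in ELF versus control, against 13.1% and 23% of all genes. Their summed level was 42.0 to 52.7 in ELF, 39.8 to 46.8 in E1 and 37.7 to 42.6 in control, and Ctss, a lysosomal protease, differed by 0.15 between E1 and control. Of 9 perivascular macrophage markers 0 were called by limma (0 between either trial group and control at an unadjusted p under 0.05), and 5 of 9 had a positive difference between E1 and control, with a median of 0.018. Stab1, a scavenger receptor, had the highest difference at 0.16 and Mrc1, the mannose receptor, the lowest at -0.27, both named after their values were seen. Ly6c, now Ly6c1, which vessels also express, was called lower in ELF than in control by -0.80. It was the only call among 12 neutrophil and monocyte markers, against 2.15% of all genes called there. That list's summed level was 1.96 to 3.62 in ELF, 2.45 to 3.48 in E1 and 3.07 to 3.68 in control, with 7 of 12 markers well above background on all arrays. Of 10 astrocyte markers, Acsbg1 was called, higher in ELF than in control by 0.35, against 2.15% of all genes called there. At an unadjusted p under 0.05 there were 3 of 10 astrocyte markers in each of the 3 comparisons. The shares of all genes were 13.1% in E1 versus control, 23% in ELF versus control and 9.64% in ELF versus E1. None was called among red blood cell and platelet, meningeal and neuron markers. Against 13.1% of all genes, 0, 1 and 2 of their 10, 11 and 10 markers had an unadjusted p under 0.05 between E1 and control. The neuron markers under it, named after their values were seen, were Syn1 at 1.00 (limma adjusted p = 0.105) and Tubb3 at 0.31 (limma adjusted p = 0.165). The neuron markers Snap25 and Camk2a were saturated on 15 arrays each, Nefl on 10 and Syt1 on 7. The haemoglobin gene Hbb-b1 was saturated on 6. No difference is given for these genes. Dcn, a fibroblast proteoglycan, differed by -0.23, and the red cell genes Hba-a1, saturated on 1 array, and Alas2 by -0.09 and -0.54.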

How the data were processed

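Total RNA of the hippocampus was measured on 15 Agilent single-colour arrays, 1 per sample, in 3 groups of 5 taken from the sample labels. Per the file headers, Feature Extraction 9.5.3.1 gave each of 45018 spots a mean intensity, a background intensity, a processed intensity (background-subtracted and detrended by the software) and flags. The deposited value table of the authors is in log2, with array medians of 8.68 to 8.92. They followed log2 of the mean intensity (r across spots 0.995 to 0.999), so scale and direction are known, but with a between-array step not given in the sources used here. Feature Extraction and limma are named in the submitters' processing notes. The probe coordinates are on mm7 per the file headers.

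For the reported values, 1639 control spots and outlier spots were left out, log2 of the processed intensity was set relative to the array's 75th percentile (1441 to 2932), and spots were averaged to 41174 probes. Probes well above background on at least 5 arrays were kept (38458), and the brightest per gene name was used (26117 genes). The number of arrays limits the precision. The tests were run in limma 3.58.1 under R 4.3.3 (lmFit, eBayes, two-sided, Benjamini-Hochberg) over all 15 arrays with no covariate. The code was tested on simulated data. Array names were matched to current symbols for 22951 probes through a RefSeq table of GRCm38.p6.

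The members and gene lists were chosen with earlier results of these data known. Named were all members and probes, the called genes of each list (at most 6, or 4 for marker lists; otherwise the 3 with the smallest p or the 2 brightest markers), and the 5 genes most correlated with Cxcl5 and with Ccl3 among those well above background on all arrays. Of the 9 called endothelial markers 4 were described after their values were seen. Alternatives covered background correction, normalization, the filter, the probe per gene, the deposited table, the slide and the replicate number. The labels share replicate numbers between groups without saying that they pair samples. Deviations of same-numbered E1 and control arrays correlated at 0.142 to 0.299 in every pair, but differently numbered arrays were not compared. Whether the numbers pair animals is therefore not known. The reported fits did not pair them, and only the alternatives with a replicate block did. Same-numbered pairs with an ELF array correlated at -0.435 to 0.311. A marker that this rule names is not reported here.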

Additional observations from a re-analysis of the deposited data

Results flagged for a closer look

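The values below stood apart from the other arrays of their group by Dixon's gap criterion. In 36 groups of 5 arrays checked, 4 did so, and chance gives about 1 in 20. E1 array 3 was at -6.158 for Cxcl1, with the other E1 arrays between -5.202 and -4.9, and was not well above background there. The same array was at -5.43 for Ccl4, with the other E1 arrays between -4.917 and -4.776. Control array 5 was at -5.32 for Cxcl1, with the other control arrays between -6.131 and -5.924, and was the only control array on slide 2. ELF array 2 was at -4.216 for Ccl3, with the other ELF arrays between -4.472 and -4.408.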

How the results depend on the processing

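The number of members called was 2 in each comparison. With the slide as a fixed block it was 0 for E1 versus control, 0 for ELF versus control and 3 for ELF versus E1 (Cxcl5, Ccl3 and the saturated Cx3cl1 probe, among 5120 genes called in all), and with the slide as a random block 0 in each. With normexp it was 1 for E1 versus control (Cxcl5), 1 for ELF versus control (Cxcl12) and 0 for ELF versus E1. Quantile normalization gave 0 for ELF versus E1 and 3 for E1 versus control (with Cxcl12), the array median 1 for ELF versus control and 0 for ELF versus E1, the mean of all probes 1 for ELF versus control (Cxcl14), and the authors' deposited values 1 for ELF versus E1, 3 for E1 versus control (with Cxcl12) and 2 for ELF versus control, Cxcl12 and the saturated Cx3cl1 probe in place of Cxcl14. The replicate block gave 2 for E1 versus control, 1 for ELF versus control and 0 for ELF versus E1. With only the arrays of the 2 groups the count was 0 for ELF versus control and for ELF versus E1. With both changes, chosen after seeing the data, it was 4 for E1 versus control (Cxcl5, Ccl3, Ccl2 and Cxcl12), 0 for ELF versus control and 0 for ELF versus E1. The replicate block changed no other call of a member. With 1 array left out the count was between 0 and 2 for ELF versus E1 and between 0 and 3 for ELF versus control. In these fits Cxcl5 and Ccl3 were called between E1 and control in 10 of 10, and between ELF and E1 in 3 and 2 of 10. Both genes were picked for their E1 level on these same arrays, so these counts are a description without a test. The ELF versus E1 call of Cxcl5 was lost without E1 arrays 1, 3, 4 or 5 or ELF arrays 1, 2 or 5, and that of Ccl3 without any E1 array or ELF arrays 1, 2 or 5. The cause of these changes was not tested.

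Genes called over the whole array differed by over 1.5 times from the reported 49 for E1 versus control, 562 for ELF versus control and 2 for ELF versus E1 under these settings. They were 454, 1700 and 5 in that order with quantile normalization, 300, 1203 and 0 with the array median, 244, 1588 and 11 with the deposited table, 4, 85 and 5120 with the fixed slide block, 0 for each with the random slide block, and 9, 217 and 0 with the replicate block. With only 2 groups in the fit the ELF counts were 0 and 0, and with the replicate block added E1 versus control gave 3201. Normexp gave 0 and the stricter filter 4 for ELF versus E1. With 1 array left out, the counts ran from 8 (without control array 2) to 1119 (without control array 5) for E1 versus control, from 0 (without control array 2 or 3) to 5164 (without ELF array 4) for ELF versus control and from 0 to 11 for ELF versus E1. In E1 versus control 35 of the calls were higher and 14 lower, and with quantile normalization 377 and 77, with the array median 260 and 40. The split moved in ELF versus control to 23 and 62 with the fixed slide block and 782 and 806 with the deposited table, from 389 and 173.

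The sign of differences that were not called also changed in places. With the slide as a fixed block, which equals the within-slide value where groups share a slide, E1 minus control was -0.184 for Cxcl1, -0.0921 for Ccl5, -0.00325 for its dimmer probe and 0.0052 for the unsaturated Cx3cl1 probe. ELF minus control was then 0.408 for Cxcl5, -0.839 for Cxcl1, -0.6 for Cxcl10, -0.904 for Ccl4, -0.603 for Ccl5, -0.474 for its dimmer probe and -0.615 for Ccl2. ELF minus E1 was -0.208 for Cxcl10, -0.48 for Ccl4, -0.511 for Ccl5, -0.471 for its dimmer probe and 0.107 for Cxcl12. With the slide as a random block, ELF minus control was -0.197 for Cxcl10, -0.153 for Ccl4 and -0.00733 for Ccl5, and ELF minus E1 was -0.0256 for Cxcl10, -0.0603 for Ccl4, -0.183 for Ccl5 and -0.0933 for its dimmer probe. With normexp, E1 minus control was 0.0122 for Cxcl10 and 0.0456 for Ccl4, and ELF minus E1 0.0308 for Cxcl1. With quantile normalization, E1 minus control was -0.00925 for the dimmer Ccl5 probe, ELF minus control -0.218 for Cxcl10 and -0.0107 for the Cxcl12 probe further 5′, and ELF minus E1 -0.0166 for Cxcl10. With the array median, ELF minus control was -0.0801 for Cxcl10 and -0.0968 for that Cxcl12 probe, and in the deposited table -0.0762 and -0.0871. With the mean of all probes, ELF minus E1 was 0.0443 for Cxcl12.

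With 1 array left out, E1 minus control lay between -0.0959 and 0.0748 for Ccl4, between -0.216 and 0.0649 for Cxcl10 and between -0.109 and 0.0137 for the unsaturated Cx3cl1 probe. ELF minus control lay between -0.137 and 0.166 for Cxcl10 and between -0.0276 and 0.0678 for the Cxcl12 probe further 5′. ELF minus E1 lay between -0.216 and 0.193 for Cxcl1, between -0.0723 and 0.231 for Cxcl10, between -0.0835 and 0.184 for Ccl5 and between -0.261 and 0.0283 for Ccl2. Signal over background limits the dim genes, Cxcl5, Ccl3, Ccl4 and Cxcl1 among them.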
